A study of Saccharomyces cerevisiae with 24 samples.

Results

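The interval from 60 to 120 min of hypoxia was examined by comparing the 3 libraries of cells kept under nitrogen for 120 min with the 3 libraries of cells kept for 60 min, each matched by the number of its time course. These 6 libraries belong to a series of 24 RNA-seq libraries from Saccharomyces cerevisiae that cover 8 times, from 0 to 240 min, in 3 time courses, called courses 1, 2 and 3 here. All 7140 features of each file entered, and the 6262 with enough reads were tested. Both groups were strain yMH914, a MATa haploid of S288C background with a repaired HAP1 allele and the genotype ura3D0 his3D200 leu2D0 lys2-128d. They were grown in YPD without added ergosterol or Tween 80, so the 2 groups differ by the labels only in the time spent in nitrogen. The growth description has cells diluted so that each flask reached mid-log phase at its own time, so a longer time in nitrogen and another dilution cannot be told apart.

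Oxygen is a substrate for the synthesis of heme, ergosterol and unsaturated fatty acids, so a yeast cell without oxygen runs low on all of them. Low heme releases genes from the repressor Rox1, and low sterol activates the transcription factor Upc2, which raises genes for sterol import and, together with other factors, the DAN/TIR genes. DAN/TIR genes encode mannoproteins that take the place of Cwp1 and Cwp2 in the cell wall of anaerobic yeast. The citrate and glycine cleavage enzymes that appear below feed mitochondrial metabolism and one-carbon units.

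Total counts of the 6 libraries ranged from 6633901 to 13690628, within the 4980240 to 16346113 of all 24. The MATa genes ranged from STE2, the highest at 592 to 862 CPM (counts per 1000000 counted reads, with TMM factors), down to ASG7 at 4.43 to 11.7 CPM. MFA1 was at 6.03 to 56.0 CPM and AGA2 at 11.1 to 40.6 CPM. MF(ALPHA)1 had at most 5 counts in any of the 24 libraries and URA3, HIS3 and LEU2 at most 2. MF(ALPHA)2 had up to 93 counts in the 24 libraries, with 51 at 60 min and 65 at 120 min in course 1. SAG1 and STE3, which are known from alpha cells, were nevertheless at 21.7 to 34.6 and 9.35 to 18.8 CPM in the 6 libraries. Alignments that are not unique, which were not counted, fell from 122 to 96.1 per 100 counted reads in course 2 and from 108 to 87.5 in course 3, and their part in the results was not tested. In a bulk culture, fewer cells that express a gene and less of its RNA per cell cannot be told apart.

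Between 60 and 120 min the cells raised anaerobic cell wall mannoproteins, the sterol importer AUS1, subunits of ribonucleotide reductase and some phospholipid enzymes, and lowered the wall proteins Cwp1 and Cwp2 and some enzymes of the citrate, glycine and sulfur pathways. In edgeR's quasi-likelihood test with the course as a block, 27 genes were higher at 120 min (0.431% of the genes tested) and 28 were lower (0.447%) at an adjusted p below 0.05 and a change of 2-fold or more. Of the 27, 9 rose at least 4-fold, and of the 28, 3 fell at least 4-fold. The 27 and the 28 moved in the same direction in all 3 courses, and the 120 min libraries did not overlap with the 60 min libraries for 26 and 24 of them, where 4.63% of all genes tested lay wholly above and 4.82% wholly below. With no minimum on the fold change, 49 genes were higher (0.782%) and 59 lower (0.942%).

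Both counts depended on the course. The biological coefficient of variation was 0.196 with the course as a block and 0.590 without it, and the fit without the block called 8 genes higher and 2 lower (0.128% and 0.0319%): TIR4, PBI1, TIR3, AUS1, HES1, YGL039W, SRO77 and TDA6 among the former, and ICY1 and CTF19 among the latter. Without course 2 the fit with the block called 6 and 1: DAN1, TIR4, PBI1, TIR3, RNR3 and AUS1 rose, and GCV2 fell. Adjusted p values below are from edgeR's quasi-likelihood test with the block over all 6262 genes, and levels are CPM scaled with TMM factors (trimmed mean of M values), given in the order of courses 1, 2 and 3.

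**Figure D1:**
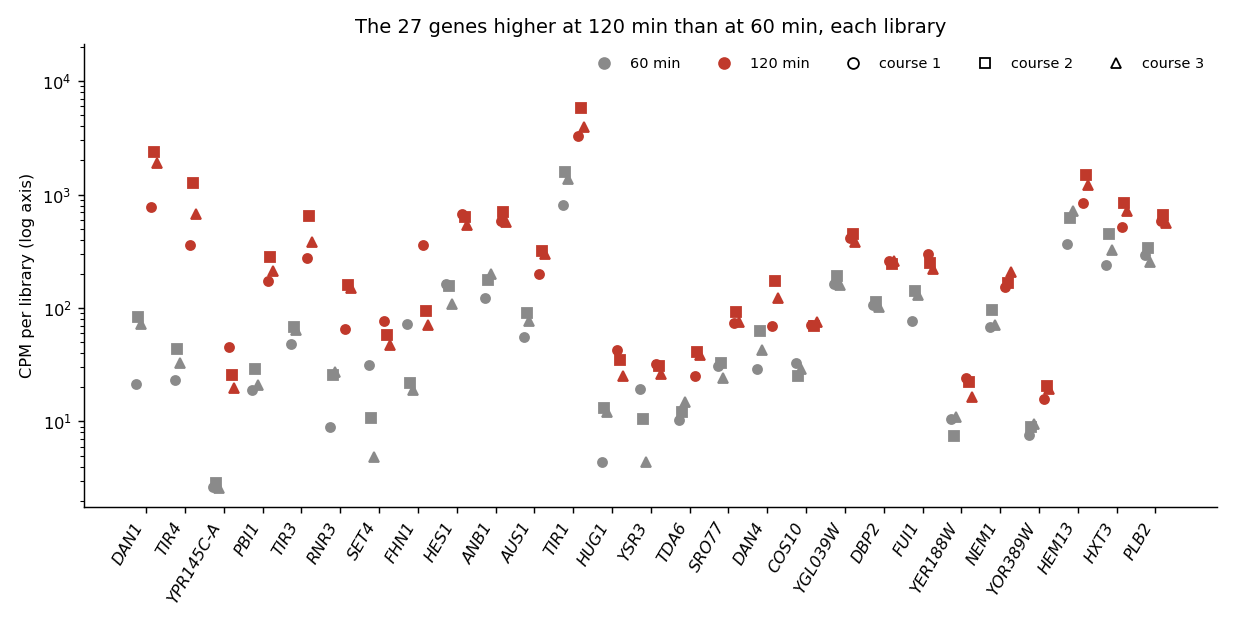
CPM on a log axis for each of the 27 genes higher at 120 min, with the 60 min libraries in grey and the 120 min libraries in red and a marker shape for each course. FHN1 is the only gene of the 27 whose groups overlap, since course 1 at 60 min (71.9 CPM) lies just above course 3 at 120 min (70.8 CPM).

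Cell wall mannoproteins of the DAN/TIR list gave the 2 largest rises among the genes called in the step. Of 6 tested members, 5 rose and TIR2 did not pass, and the list's median log2 fold change was 2.32 against -0.0004 over all genes. DAN1 was at 21.5, 83.9 and 72.1 CPM at 60 min and at 772, 2371 and 1886 CPM at 120 min. TIR4 was at 23.4, 43.2 and 32.5 CPM at 60 min and at 357, 1264 and 679 CPM at 120 min. In both genes the 120 min libraries lay far above the 60 min libraries, and course 1 was the lowest of the 3 at either time. The log2 fold change, given throughout with its standard error (SE), was 4.93 for DAN1 (SE 0.53, adjusted p = 4.55e-06) and 4.47 for TIR4 (SE 0.30, adjusted p = 1.86e-09). Without the block, TIR4 still passed (adjusted p = 0.000108) and DAN1 did not (adjusted p = 0.171).

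TIR3, another serine-rich mannoprotein gene, went from 48.3, 68.1 and 63.9 CPM to 274, 652 and 384 CPM, a log2 fold change of 2.82 (SE 0.30, adjusted p = 4.55e-06). TIR1 went from 805, 1569 and 1386 CPM to 3277, 5786 and 3965 CPM, a log2 fold change of 1.83 (SE 0.28, adjusted p = 0.000603). For neither gene did the groups overlap. DAN4 rose by a log2 fold change of 1.41 (SE 0.29, adjusted p = 0.0116), and TIR2 had one of 0.54 (SE 0.27, adjusted p = 0.481). The PAU genes are a large family of near-identical relatives of these mannoproteins, of which 9 of 24 had enough reads to be tested and 0 passed in edgeR (3 were higher at an unadjusted p under 0.05, and 0 passed in DESeq2).

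The members of the DAN/TIR group differed in when they began to rise. TIR1 had already climbed from a mean of 50.4 CPM at 10 min to 212 at 30 min and 1253 at 60 min. TIR4 stayed between 25.8 and 34.1 CPM at every time up to 60 min, and TIR3 between 42.4 and 77.4, before both rose in the step. DAN1 was at its lowest mean, 3.78 CPM, at 30 min and then at 59.2 at 60 min. All 4 had their highest mean at 240 min, 3318 CPM for DAN1, 4442 for TIR4, 2490 for TIR3 and 6982 for TIR1.

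**Figure D2:**
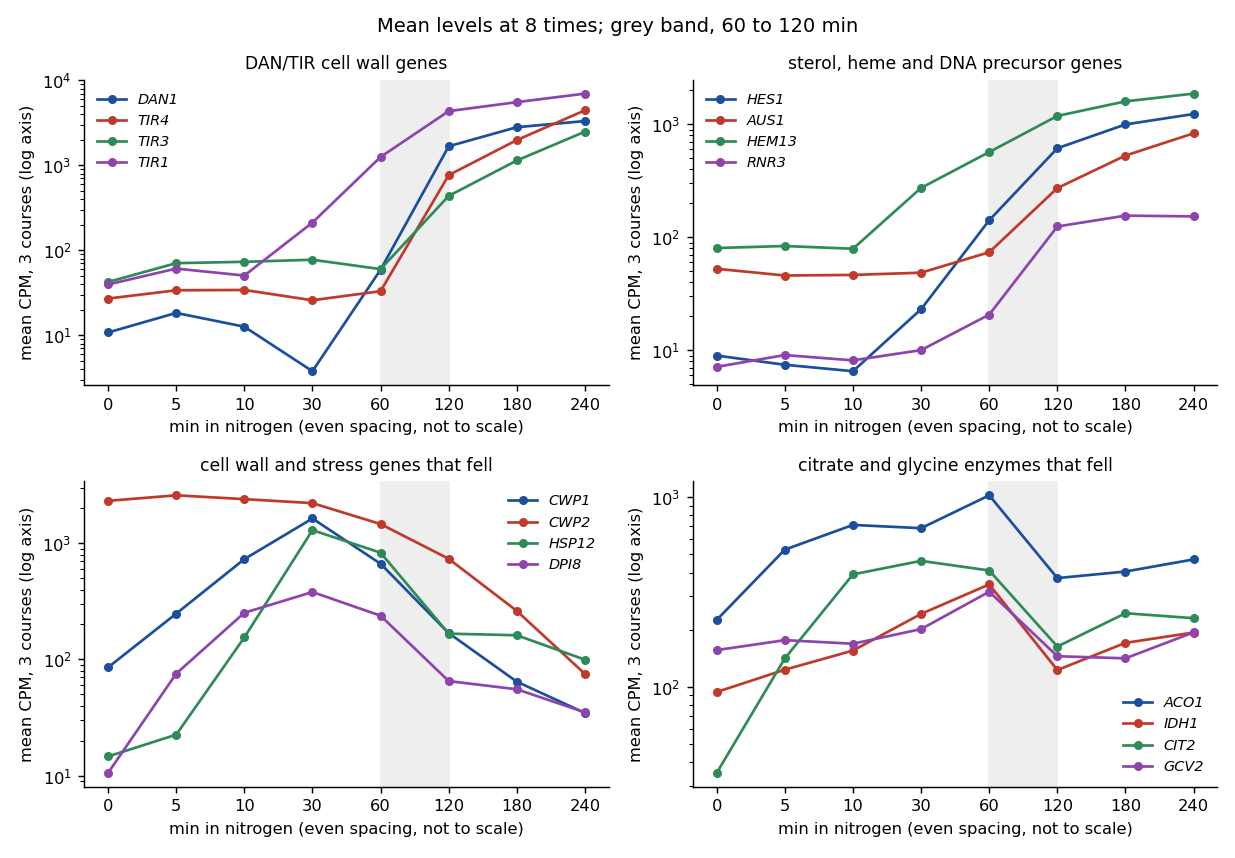
Mean CPM over 3 courses on a log axis against the 8 times, drawn at even spacing, for genes that passed in the step, which is shaded. TIR3 and TIR4 are flat until 60 min and TIR1 is not, whereas ACO1, IDH1 and GCV2 have their highest mean at 60 min.

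The stretch of 300 bases that ends 100 bases before the start codon was read for each gene from the R64 genome of RefSeq and searched on both strands for short motifs known from hypoxic promoters: TCGTTNAG (the anaerobic response element AR1), TCGTATA (the core bound by Upc2) and ATTGTT (the core bound by Rox1). The motif TCGTTNAG was added after values were seen. It was present in 5 of the 27 windows of genes that rose (18.5%), in 2 of 27 windows of genes that fell (7.41%) and in 3.01% of 5720 windows of protein-coding genes. TCGTATA was present in 4 of the 27 (14.8%), in 3.7% of windows of genes that fell and in 4.56% of all windows. ATTGTT was in 15 of the 27 (55.6%), against 33.3% and 32.0%. Other motifs were searched too. CCAAT (Hap2/3/4/5) was in 29.6% of windows of genes that rose, 48.1% of those that fell and 44.3% of all. For AGGGG (Msn2 and Msn4) the shares were 18.5%, 37.0% and 23.8%, and for GATGAG (the PAC core) 22.2%, 7.41% and 18.1%. The Hap1 motif was in 0% of both groups and 0.227% of all. Of the 5 windows with TCGTTNAG, 4 are printed, as is that of ANB1, which holds ATTGTT 4 times. They run 5′ to 3′ in the direction of the gene. TCGTTNAG, TCGTATA and ATTGTT on either strand are in capitals and everything else is in lower case. A match is a description of the letters and not evidence of a site in use.
DAN1, chrX:709808-710107 (minus strand): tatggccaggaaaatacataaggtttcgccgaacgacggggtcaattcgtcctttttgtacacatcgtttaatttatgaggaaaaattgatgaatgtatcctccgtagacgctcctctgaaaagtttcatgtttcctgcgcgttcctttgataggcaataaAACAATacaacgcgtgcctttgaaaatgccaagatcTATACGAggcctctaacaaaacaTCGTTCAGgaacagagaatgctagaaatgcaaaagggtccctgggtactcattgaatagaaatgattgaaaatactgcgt
DAN4, chrX:715841-716140 (minus strand): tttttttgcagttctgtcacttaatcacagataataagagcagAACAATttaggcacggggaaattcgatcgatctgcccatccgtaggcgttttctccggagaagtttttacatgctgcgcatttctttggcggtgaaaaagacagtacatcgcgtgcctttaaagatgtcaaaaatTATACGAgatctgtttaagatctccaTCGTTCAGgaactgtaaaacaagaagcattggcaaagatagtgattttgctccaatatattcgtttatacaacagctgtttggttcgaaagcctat
TIR4, chrXV:343935-344234 (plus strand): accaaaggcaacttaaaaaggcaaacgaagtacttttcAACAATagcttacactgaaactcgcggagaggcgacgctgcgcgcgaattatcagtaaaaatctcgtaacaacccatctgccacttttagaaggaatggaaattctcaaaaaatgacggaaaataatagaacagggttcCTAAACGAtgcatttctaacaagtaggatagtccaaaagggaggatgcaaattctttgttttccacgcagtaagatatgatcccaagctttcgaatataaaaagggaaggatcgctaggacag
PBI1, chrXVI:28265-28564 (minus strand): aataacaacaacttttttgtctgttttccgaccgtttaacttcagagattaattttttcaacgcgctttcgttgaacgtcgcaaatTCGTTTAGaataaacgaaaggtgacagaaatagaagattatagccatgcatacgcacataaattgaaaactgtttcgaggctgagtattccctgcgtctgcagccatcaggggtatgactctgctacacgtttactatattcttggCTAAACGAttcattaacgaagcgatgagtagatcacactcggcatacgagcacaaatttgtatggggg
ANB1, chrX:525482-525781 (minus strand): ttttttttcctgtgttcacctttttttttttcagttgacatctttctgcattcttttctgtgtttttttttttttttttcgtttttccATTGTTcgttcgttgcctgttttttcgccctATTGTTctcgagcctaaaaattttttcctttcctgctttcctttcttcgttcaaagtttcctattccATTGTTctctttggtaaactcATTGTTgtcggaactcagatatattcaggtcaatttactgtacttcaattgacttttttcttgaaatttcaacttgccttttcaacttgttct

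In DAN1 and DAN4, which are neighbours on chromosome X, TCGTATA on the minus strand of the gene was followed by TCGTTNAG, at 203 and 180 bases before the start codon in DAN1 and at 222 and 196 in DAN4. PBI1 holds TCGTTNAG at 314 and at 168 bases before its start and none of the other pair. The windows of TIR3 and TIR1, which rose as well, hold neither TCGTTNAG nor TCGTATA in these 300 bases.

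Genes of sterol movement rose next to the wall genes, while none of the enzymes that make ergosterol passed at 2-fold. Of 12 genes of sterol uptake and esterification, 2 rose at least 2-fold, 2 more rose by less and 8 did not pass, with a list median of 0.15. HES1, which encodes an oxysterol-binding protein, went from 162, 155 and 108 CPM to 674, 635 and 535 CPM, a log2 fold change of 2.12 (SE 0.27, adjusted p = 4.92e-05). AUS1, the transporter that imports sterols, went from 55.1, 90.2 and 76.3 CPM to 201, 317 and 301 CPM, a log2 fold change of 1.88 (SE 0.16, adjusted p = 9.80e-08). Every 120 min library lay above every 60 min library for both genes. PDR11, the other sterol importer, had a log2 fold change of 0.14 (adjusted p = 0.94).

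UPC2, the sterol-sensing activator itself, was at 80.9, 118 and 113 CPM at 60 min and at 142, 227 and 232 CPM at 120 min, a log2 fold change of 0.93 (SE 0.17, adjusted p = 0.0051). Its paralog ECM22 had one of -0.17 (adjusted p = 0.83). ARE1, which esterifies sterols, rose by 0.65 (adjusted p = 0.038), and its paralog ARE2 had a log2 fold change of -0.56 (adjusted p = 0.49). Of 24 genes of ergosterol synthesis, none passed with a 2-fold change (10 were higher at an unadjusted p under 0.05, and 7 passed in DESeq2), and ERG13 (0.64, adjusted p = 0.0186) and ERG27 (0.50, adjusted p = 0.0247) rose by less. The list's median log2 fold change was 0.28, with 17 members above 0. With scaling to the total count ARE1 and ERG27 did not pass (edgeR adjusted p = 0.0600 and 0.0663). DAP1, a heme-binding protein that assists the sterol demethylase Erg11, also rose by 0.80 (adjusted p = 0.0153), and ATF2, an acetyltransferase that acts on sterols, by 0.94 (adjusted p = 0.00316).

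Membrane lipid enzymes outside the sterol pathway moved in the same step. In a list of 14 enzymes of lysophospholipid and phosphatidate metabolism, which was assembled after the values were seen and is therefore a description, 5 rose and 9 did not pass. NEM1, the catalytic subunit of the phosphatase that activates Pah1, went from 68.2, 96.8 and 71.1 CPM to 153, 166 and 207 CPM (log2 fold change 1.14, SE 0.20, adjusted p = 0.00302). PLB2, a phospholipase B, went from 296, 341 and 253 CPM to 588, 654 and 565 CPM (log2 fold change 1.03, SE 0.21, adjusted p = 0.00984). The acyltransferase genes ALE1 and ICT1 rose by 0.93 and 0.75, and ALE2 by 0.76. YSR3, a sphingoid base phosphate phosphatase, had a log2 fold change of 1.58 (SE 0.41, adjusted p = 0.0499). Its log2 ratios were 0.73, 1.52 and 2.52 in courses 1, 2 and 3. YSR3 and ICT1 did not pass with scaling to the total count (edgeR adjusted p = 0.0668 and 0.0630).

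OLE1, the oxygen-using desaturase that makes unsaturated fatty acids, went from 1871, 2563 and 2540 CPM to 6010, 7131 and 6725 CPM. Its groups were well apart, and its log2 fold change was 1.51 (SE 0.41), yet it did not pass the test (adjusted p = 0.0628). It passed in DESeq2 (adjusted p = 0.0484). None of the 11 tested members of the fatty acid list passed in edgeR, where 5 were higher at an unadjusted p under 0.05, while 2 passed in DESeq2, and the list's median was 0.45.

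The genes ANB1 and HEM13 were part of the rise, and a part of low heme in it was not tested. ANB1, the hypoxic isoform of translation factor eIF5A, was at 124, 175 and 198 CPM at 60 min and at 590, 700.5 and 569 CPM at 120 min, a log2 fold change of 1.97 (SE 0.38, adjusted p = 0.00663). HEM13, which encodes the oxygen-using coproporphyrinogen oxidase of heme synthesis, was at 366, 619 and 721 CPM at 60 min and at 845, 1504 and 1212 CPM at 120 min, a log2 fold change of 1.09 (SE 0.20, adjusted p = 0.0047). The groups were apart in both, and both had risen before, since ANB1 was at a mean of 15.9 CPM and HEM13 at one of 274 CPM at 30 min. None of the other 10 genes of heme synthesis and breakdown passed, nor did the other 3 hypoxic isoforms, AAC3 (0.72), CYC7 (0.08) and COX5B (0.04). ROX1 itself, the repressor, was at 15.5, 18.7 and 24.2 CPM at 60 min and at 11.6, 14.4 and 26.4 CPM at 120 min, with overlapping groups and a log2 fold change of -0.15 (SE 0.50, adjusted p = 0.97).

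Among 14 transcription factors of the oxygen response, a list that leaves out UPC2, none passed in edgeR or DESeq2, and 1 was higher at an unadjusted p under 0.05. UPC2, counted above in the sterol list, passed in both (0.93, adjusted p = 0.0051 in edgeR and 2.99e-05 in DESeq2). HAP1, which senses heme, had a log2 fold change of 0.30 (adjusted p = 0.558), MOT3 one of -0.19 (adjusted p = 0.918) and HAP4, the activating subunit of the respiratory regulator Hap2/3/4/5, one of -0.84 (SE 0.43, adjusted p = 0.503). HAP4 fell short of the test although its 120 min libraries (26.7, 19.8 and 32.2 CPM) were all below its 60 min libraries (35.4, 44.5 and 62.3 CPM).

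Ribonucleotide reductase makes deoxyribonucleotides for DNA synthesis, and its inducible genes rose together. RNR3, the damage-inducible large subunit, went from 8.91, 25.8 and 27.4 CPM to 65.9, 158 and 151 CPM, a log2 fold change of 2.62 (SE 0.28, adjusted p = 4.55e-06). RNR4 and RNR2, the small subunits, rose by 0.93 (SE 0.16, adjusted p = 0.00211) and 0.88 (SE 0.13, adjusted p = 0.0005). For RNR2 the groups overlapped, since course 1 at 120 min (374 CPM) lay below courses 2 and 3 at 60 min (488 and 498 CPM). HUG1, a small inhibitor of the enzyme, rose by 1.80 (SE 0.35, adjusted p = 0.00663), from 4.40, 13.1 and 12.1 CPM to 42.9, 35.1 and 24.9 CPM.

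The other 6 members of the list of ribonucleotide reductase and DNA damage genes did not pass. Among them were RNR1, the constitutive large subunit (-0.25, adjusted p = 0.56), the inhibitor gene SML1 (-0.14), the repair gene RAD54 (-0.13), the checkpoint kinase gene DUN1 (-0.24) and DIN7 (-0.24). The list median was -0.13, so its sign differs from that of the 4 genes that rose. No histone gene of 10 and no cyclin or other cell cycle regulator of 18 passed in edgeR or DESeq2, with list medians of -0.07 and 0.05. At an unadjusted p under 0.05, 0 histone genes and 5 cell cycle regulators were lower.

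Several more genes rose at least 2-fold outside these groups. PBI1, whose window is printed above, was at 18.7, 28.7 and 20.8 CPM at 60 min and at 175, 284 and 211 CPM at 120 min, a log2 fold change of 3.29 (SE 0.19, adjusted p = 8.70e-11). FHN1, the paralog of the eisosome protein gene NCE102, rose by 2.13 (SE 0.26, adjusted p = 3.84e-05), and SET4, a SET-domain protein gene, by 2.44 (SE 0.63, adjusted p = 0.0458). SET4 was at 31.6, 10.6 and 4.81 CPM at 60 min and at 76.7, 57.4 and 47.1 CPM at 120 min, so course 1 was highest at both times. SET4 did not pass in DESeq2 (adjusted p = 0.0613) or in edgeR with scaling to the total count (adjusted p = 0.0609). NCE102 itself had a log2 fold change of -0.32 (adjusted p = 0.56).

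Among genes with a role in nutrient uptake, HXT3, a low-affinity glucose transporter gene, rose by 1.05 (SE 0.20, adjusted p = 0.0051), and the uridine permease gene FUI1 by 1.16 (SE 0.22, adjusted p = 0.00663). FUI1 went from 77.1, 142 and 130 CPM to 300.2, 250 and 222 CPM, and it was the only one of the 27 whose log2 fold change at 180 against 30 min was below 0. DBP2, a helicase gene used in ribosome and messenger RNA maturation, went from 107, 113 and 101 CPM to 258, 245 and 262 CPM (log2 fold change 1.25, SE 0.28, adjusted p = 0.0192). Its level stayed far under its mean of 2188 CPM at 0 min. HXT3 and FUI1 were also below their 0 min means at 120 min, with means of 695 against 1330 CPM and 257 against 309 CPM. SRO77 (1.47), a gene of polarized secretion, and TDA6 (1.49) completed the named genes that rose. COS10 (1.33), YPR145C-A (3.37), YGL039W (1.28), YER188W (1.16) and YOR389W (1.11) also rose. They are outside the rule for named genes and were picked with their values in view. COS10 and YER188W did not pass with scaling to the total count (edgeR adjusted p = 0.0643 and 0.0630). YOR389W has a near-identical copy, so its reads are uncertain.

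Most protein synthesis genes had log2 fold changes slightly above 0 that did not pass. Of 138 cytosolic ribosomal protein genes, 123 had a log2 fold change above 0 and 0 passed in edgeR or DESeq2 (8 were higher and 2 lower at an unadjusted p under 0.05). The median was 0.20, or 0.14 with scaling to the total count, and 0.29, 0.27 and 0.04 in courses 1, 2 and 3. Of 60 ribosome assembly factors, 55 were above 0 and only DBP2 passed, with a median of 0.21, or 0.16 with that scaling. Over all 6262 genes 3121 were above 0, and scaling to the total count put the median of all genes at -0.05.

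**Figure D3:**
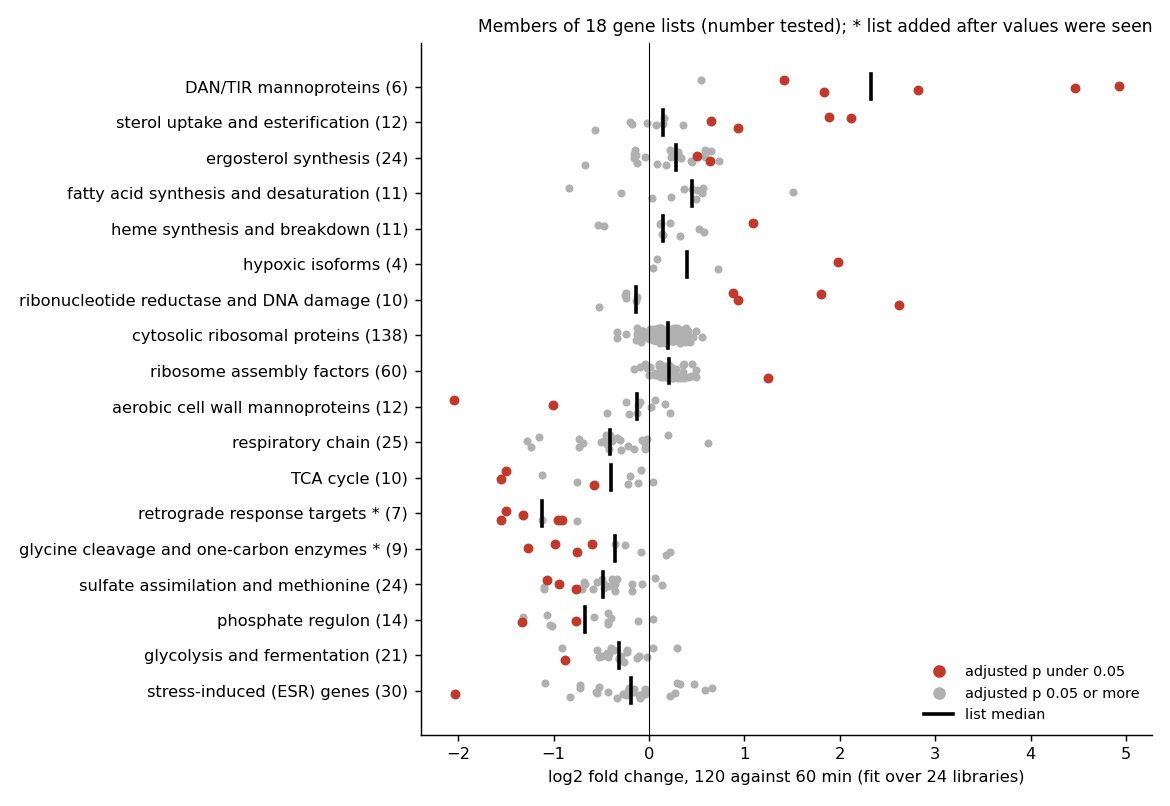
Log2 fold change at 120 against 60 min (horizontal axis) of each tested member of 18 gene lists, with members at an adjusted p under 0.05 in red, the others in grey and the list median as a black bar. DAN/TIR genes stand at the right with a median of 2.32, and citrate pathway genes regulated by the retrograde response, a list made after values were seen, at the left with a median of -1.12.

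Wall and stress genes were among those that fell, and some of them had first risen in hypoxia. CWP1 was at 484, 697 and 819 CPM at 60 min and at 92.3, 169 and 244 CPM at 120 min, a log2 fold change of -2.04 (SE 0.46, adjusted p = 0.0194). CWP2 was at 1425, 1384 and 1587 CPM at 60 min and at 868, 640 and 698 CPM at 120 min, a log2 fold change of -1.0 (SE 0.22, adjusted p = 0.0146). These 2 wall mannoprotein genes lie next to each other on chromosome XI, and their groups did not overlap. Their histories differed: CWP1 rose from a mean of 85.4 CPM at 0 min to 1636 at 30 min before it fell, whereas CWP2 stayed between 2218 and 2591 CPM up to 30 min. By 240 min CWP1 was at 34.6 and CWP2 at 75.0 CPM.

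The other 10 of 12 wall mannoprotein genes of aerobic cells did not pass. CCW12 had a log2 fold change of 0.02, TIP1 one of 0.22, PIR1 one of 0.16 and SED1 one of -0.44, and the list's median was -0.12. FMP45, a Sur7-family membrane protein gene, fell by 1.45 on the log2 scale (adjusted p = 0.0319), from 78.6, 31.4 and 33.7 CPM to 15.3, 14.7 and 19.6 CPM.

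**Figure D4:**
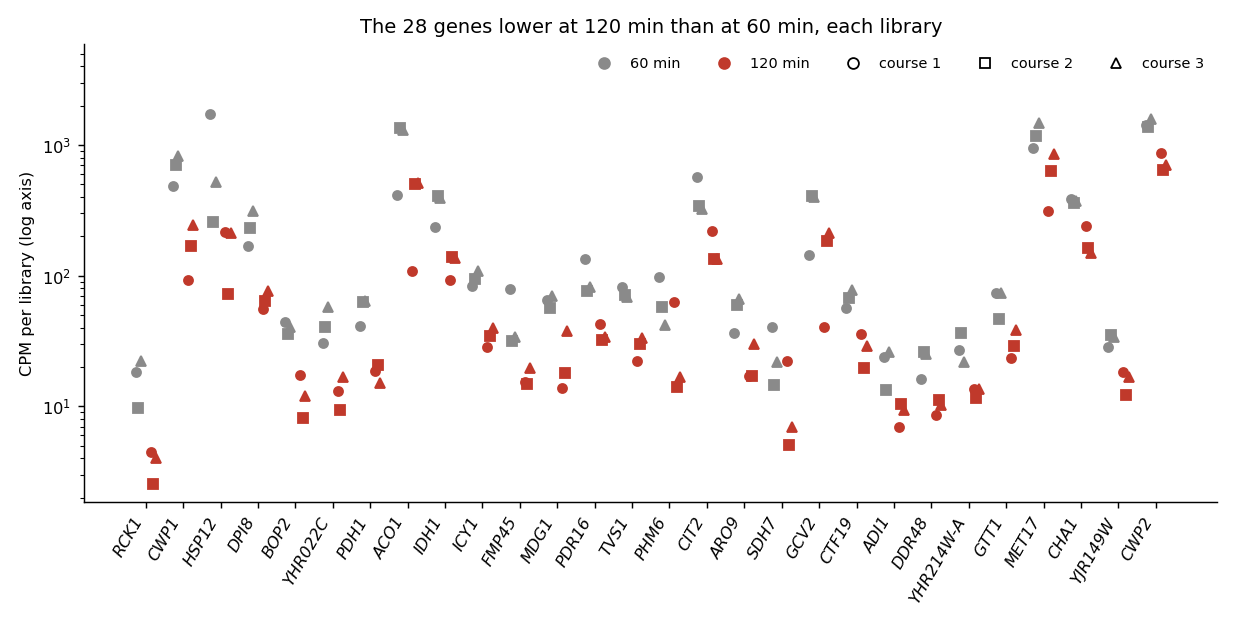
CPM on a log axis for each of the 28 genes lower at 120 min, in the same colours and marker shapes. For GCV2, SDH7, PHM6 and ACO1 the groups overlap, because course 1 stands apart from courses 2 and 3 in level although each course fell.

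HSP12, a small membrane-binding stress protein gene, was at 1715, 257 and 519 CPM at 60 min and at 214, 71.9 and 214 CPM at 120 min. It fell by 2.03 on the log2 scale (SE 0.48, adjusted p = 0.0278), and course 1 was highest at 60 min. Without course 1 the log2 fold change of HSP12 was -1.47 (edgeR adjusted p = 0.217). HSP12 was the only member of 30 stress-induced genes to pass in edgeR, and 2 of the 30 passed as lower in DESeq2. The list's median log2 ratios were -0.71, 0.17 and -0.05 in courses 1, 2 and 3, so the courses did not share a direction. CTT1, the cytosolic catalase gene, had a log2 fold change of -0.28, the trehalose synthesis gene TSL1 one of -0.21, the glycogen synthase gene GSY1 one of 0.59 and the disaggregase gene HSP104 one of 0.47, none of which passed.

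RCK1, a protein kinase gene of the oxidative stress response, had the largest fall among the genes called. It went from 18.2, 9.72 and 22.3 CPM to 4.47, 2.56 and 3.99 CPM (log2 fold change -2.16, SE 0.43, adjusted p = 0.00756). DPI8 went from 170, 230 and 313 CPM to 55.6, 63.8 and 75.9 CPM (log2 fold change -1.88, SE 0.43, adjusted p = 0.0215). Like HSP12 and CWP1, both genes had their highest mean at 30 min. The same was true of BOP2 (-1.78), ICY1 (-1.47) and TVS1 (-1.34), while MDG1 (-1.44), which acts in pheromone signalling, and PDR16 (-1.39), a phosphatidylinositol transfer protein gene, had their highest mean at 10 min. In all, 14 of the 28 genes that fell had their highest mean at 30 min and 8 at 60 min.

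Genes of the citrate pathway fell, among which ACO1 and IDH1 had their highest mean at 60 min and CIT2 at 30 min. ACO1, aconitase, was at 412, 1340 and 1313 CPM at 60 min and at 109, 499 and 513 CPM at 120 min, a log2 fold change of -1.55 (SE 0.28, adjusted p = 0.00334). IDH1, a subunit of NAD-dependent isocitrate dehydrogenase, was at 236, 410 and 393 CPM at 60 min and at 93.3, 138 and 135 CPM at 120 min, a log2 fold change of -1.50 (SE 0.30, adjusted p = 0.00756). CIT2, the peroxisomal citrate synthase, was at 565, 340 and 325 CPM at 60 min and at 219, 134 and 135 CPM at 120 min, a log2 fold change of -1.32 (SE 0.29, adjusted p = 0.0192). All 3 courses fell for each gene, although for ACO1 course 1 at 60 min lay below courses 2 and 3 at 120 min.

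These genes are known targets of the retrograde response, by which yeast raises the first steps of the citrate cycle when mitochondrial function is low. Of 7 such targets, listed after the values were seen, 5 fell, CIT1 (-0.75, adjusted p = 0.20) and IDH2 (-1.12, adjusted p = 0.21) did not pass, and all 7 were lower in all 3 courses. PYC1, pyruvate carboxylase, fell by 0.96 on the log2 scale (adjusted p = 0.00316) and DLD3, a lactate dehydrogenase gene, by 0.91 (adjusted p = 0.0378). In the TCA cycle as a whole 3 of 10 genes fell, ACO1, IDH1 and LSC1 (-0.57), and the later enzymes FUM1 (-0.12), MDH1 (-0.08) and KGD1 (-0.20) did not pass. None of 25 respiratory chain genes passed in edgeR or DESeq2. Of these, 6 were lower at an unadjusted p under 0.05, 23 had a log2 fold change below 0, and the median was -0.41. PDH1, a 2-methylcitrate dehydratase gene, fell by 1.66 on the log2 scale (SE 0.30, adjusted p = 0.0041).

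Glycine cleavage and one-carbon genes fell as well. GCV2, the decarboxylase subunit of the glycine cleavage system, was at 145, 404 and 402 CPM at 60 min and at 40.5, 183 and 211 CPM at 120 min, a log2 fold change of -1.27 (SE 0.17, adjusted p = 7.00e-05). It was the only gene of the 28 that still passed without course 2 (adjusted p = 0.049). GCV1, another subunit, fell by 0.76 on the log2 scale, the cytosolic serine hydroxymethyltransferase gene SHM2 by 0.99 and ADE3 by 0.60, whereas GCV3 (-0.36) and the mitochondrial SHM1 (0.22) did not pass. In this list of 9 genes, also made after the values were seen, 4 fell and none rose. ADE12, adenylosuccinate synthase, fell by 0.82 on the log2 scale (adjusted p = 0.00865) among 19 purine synthesis genes, of which 4 fell, 3 of them the one-carbon genes GCV1, GCV2 and SHM2.

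Some genes of sulfur and phosphate metabolism fell. MET17, which makes homocysteine from sulfide, was at 945, 1176 and 1468 CPM at 60 min and at 314, 632 and 853 CPM at 120 min (log2 fold change -1.07, SE 0.24, adjusted p = 0.0192). MET8 and MET5, for the heme-like cofactor and a subunit of sulfite reductase, fell by 0.94 and 0.77 on the log2 scale, and 22 of the 24 genes of the list were below 0, with a median of -0.48. Of the 24, 14 were lower at an unadjusted p under 0.05 and 3 passed in DESeq2. PHM6, a gene known from phosphate starvation, went from 97.0, 57.9 and 41.9 CPM to 63.0, 14.1 and 16.8 CPM (log2 fold change -1.34, SE 0.32, adjusted p = 0.0282). The phosphatase gene PHO8 fell by 0.77 on the log2 scale, and the other 12 of 14 phosphate genes, PHO84 (-0.43) and PHO5 (-1.07) among them, did not pass in edgeR. Of the 14, 11 were lower at an unadjusted p under 0.05 and 3 passed in DESeq2.

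Of the glycolytic genes only TDH2, a glyceraldehyde-3-phosphate dehydrogenase isozyme with near-identical copies whose reads are uncertain, passed in edgeR (-0.88, adjusted p = 0.00756), and 19 of 21 had a log2 fold change below 0. At an unadjusted p under 0.05, 9 of the 21 were lower, and 4 passed in DESeq2. GUT2, the mitochondrial glycerol-3-phosphate dehydrogenase gene, fell by 0.96 on the log2 scale (adjusted p = 0.0491). Other genes that fell were outside that rule and picked with their values in view: ARO9 (-1.31), SDH7 (-1.30), CTF19 (-1.26), ADI1 (-1.18), DDR48 (-1.17), GTT1 (-1.09), CHA1 (-1.06), YHR022C (-1.72), YHR214W-A (-1.10) and YJR149W (-1.03). The kit did not keep strand, so the values of CTF19, YHR022C and MET17 cannot be told apart from those of the genes that overlap them, IRC15, ECM12 and YLR302C.

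Genes that moved in the step were in places neighbours. DAN1 (chrX:708811-709707) and DAN4 (chrX:712255-715740) follow each other on the same strand, and YJR149W, which fell, lies 436 bases from DAN1 on the opposite strand. TIR4 (chrXV:344335-345798) and AUS1 (chrXV:349679-353863) are separated only by TIR2, which did not pass. CWP2 (chrXI:259253-259531) and CWP1 (chrXI:261132-261851) are adjacent, as are MET17 and ACO1 on chromosome XII, whose ends face each other.

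The times on either side of the step, 30 and 180 min, were compared because those libraries are not in the contrast of 120 against 60 min. They did enter the same fit of 24 libraries, so the 2 comparisons share 1 estimate of the spread and are not fully separate. In that comparison 274 genes were higher at 180 min (4.38%) and 270 lower (4.31%). Of the 27 genes that rose in the step, 26 were higher at 180 than at 30 min and 25 of them were called there too, with the same 2-fold minimum. Of the 28 that fell, 26 were lower and 17 were called. None of the 55 was called in the other direction, although FUI1 was lower at 180 than at 30 min by less than 2-fold (-0.78, adjusted p = 0.0111). The 11 that fell in the step and were not called over the longer interval include IDH1 (-0.51, adjusted p = 0.202), MET17 (0.29, adjusted p = 0.392) and CTF19 (-0.19, adjusted p = 0.573), which are among the 8 with their highest mean at 60 min.

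The change from 60 to 120 min was then set against the change over the last hour, from 180 to 240 min, which has the same length and shares no library with it. In the test of the difference between the 2 changes 15 genes were higher (0.24%) and 6 lower (0.0958%). This test holds the same 60 and 120 min values by which genes were called in the step. Overlap with those genes is therefore favoured in advance and is only a description. Of the 27 genes that rose in the step, 8 were among the 15: DAN1, TIR4, PBI1, RNR3, FHN1, HES1, AUS1 and YGL039W. DAN1 rose by 4.93 in the step and had a log2 fold change of 0.33 in the last hour, a difference of 4.60 (SE 0.67, adjusted p = 0.000772). TIR4 rose by 4.47 and had a log2 fold change of 1.11 in the last hour, a difference of 3.35 (SE 0.38, adjusted p = 3.32e-05). RNR3 had log2 fold changes of 2.62 and -0.05, a difference of 2.67 (SE 0.37, adjusted p = 0.0006).

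Of the 28 genes that fell, 3 were among the 6 lower: GCV2, ACO1 and PDH1. ACO1 had log2 fold changes of -1.55 in the step and 0.31 in the last hour, a difference of -1.87 (SE 0.39, adjusted p = 0.0311). GCV2 had -1.27 and 0.52, a difference of -1.80 (SE 0.23, adjusted p = 0.0002). CWP2, by contrast, had -1.0 in the step and -1.80 in the last hour, and its difference was not called. Without course 2 the counts were 2 and 0, and without the block 1 and 0.

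**Figure D5:**
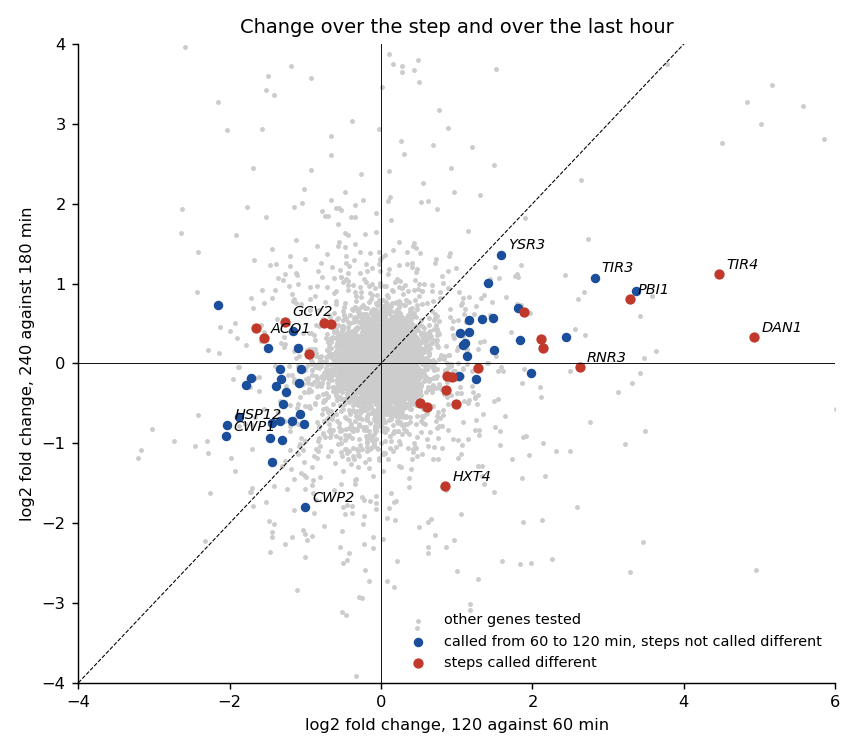
Log2 fold change from 60 to 120 min (horizontal axis) against that from 180 to 240 min (vertical axis) for each gene tested, except 46 outside the plotted range, with equal changes on the dashed line. Genes whose changes were called different are red and lie off the line, with DAN1 and TIR4 at the far right.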

How the data were processed

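Polyadenylated RNA of each library was captured with oligo-dT, and libraries were made with the TruSeq RNA kit, which keeps no strand. The authors trimmed the reads, mapped them with TopHat2 to the R64 genome and counted them per annotated feature with HTSeq. The versions of both are not given in the sources used here. The deposited values are raw counts, and 340 of the 7140 features have no read in any of the 24 libraries. Only course 1 is described in the study's methods, although the labels of all 3 courses give the same protocols. The files of courses 2 and 3 also hold lines of reads outside features, which were left out.

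Counts were fitted with edgeR 4.0.16 (R 4.3.3, limma 3.58.1) by the quasi-likelihood F-test with TMM factors on all 24 libraries, time as a factor and the course as a block. The filter (filterByExpr, minimum count 10) kept 6262 genes. The fit had 14 residual and 8.22 prior degrees of freedom. A gene was called at a Benjamini-Hochberg adjusted p under 0.05 and at least a 2-fold change. The steps were tested on simulated data. The design text calls the courses biological replicates, and equal numbers were taken to mark libraries of 1 course. Residuals of equal number at 60 and 120 min correlated at 0.91, 0.73 and 0.73 in courses 1, 2 and 3, while those of courses 2 and 3 also correlated with each other (0.71 and 0.69). Residuals of course 1 correlated with those of courses 2 and 3 at -0.82 to -0.80. The correlations thus set course 1 apart and hardly tell course 2 from course 3. The p values rest on the spread left over all 24 libraries after the level of each course is taken out. They do not cover the difference in level between courses.

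The features compared and the 42 gene lists were chosen with earlier results of these data known, and 4 more lists were added after the values were seen. The rule named the 15 largest rises and falls among called genes with the same sign in 3 courses, a gene symbol and no near-identical copy, up to 4 members per list, and ROX1, UPC2, HAP1, HAP4, MOT3, GSY1, DMC1 and EFM6. DMC1 had a log2 fold change of -0.41 and EFM6 one of 1.08 (edgeR adjusted p = 0.94 and 0.165). Further members of lists were named after their values were seen. A near-identical copy has at least 95% identity over 50% of the gene (blastn 2.17.0). Upstream windows run from 400 to 101 bases before the start codon, read from the RefSeq genome of build R64. Of the 5 upstream windows with TCGTTNAG among genes that rose, 1 is not reported here. Alternatives were DESeq2 1.42.0, RLE factors, scaling to the total count, no filter, no block, no fold minimum, only the 6 libraries and each course left out, and, chosen after seeing the data, only the libraries of 30 to 240 min. Python 3.11.15, pandas 2.3.3 and matplotlib 3.10.9 made the tables and plots.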

Additional observations from a re-analysis of the deposited data

Results flagged for a closer look

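Alignments that are not unique take no part in the comparisons. They numbered 122 and 108 per 100 counted reads at 60 min and 96.1 and 87.5 at 120 min in courses 2 and 3, above the 63.0 and 63.3 at 0 min in those courses. The files of course 1 were not used for this value.

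The test of the difference between the change from 60 to 120 min and that from 180 to 240 min set 21 genes apart, and the values below are log2 differences between those changes. Genes with a higher change in the earlier hour were DAN1 (4.60), TIR4 (3.35), RNR3 (2.67), PBI1 (2.48), HXT4 (2.39), FHN1 (1.95), HES1 (1.82), WSC4 (1.50), YGL039W (1.35), AUS1 (1.24), EFM4 (1.18), LIA1 (1.15), RNR4 (1.11), RNR2 (1.04) and ASC1 (1.01). Genes with a lower change in the earlier hour were PDH1 (-2.10), ACO1 (-1.87), GCV2 (-1.80), GCV1 (-1.26), ARI1 (-1.15) and PYC1 (-1.08). HXT4, ASC1 and LIA1 did not pass in the earlier hour alone, and HXT4, a glucose transporter gene, had log2 fold changes of 0.85 and -1.54 in the 2 intervals.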

How the results depend on the processing

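No named gene changed its direction in a call under any alternative. The 191 genes followed include genes that did not pass in the main fit, so 191 is not the base for lost calls. Among them 53 calls were lost without the replicate block, 54 without course 2, 31 without course 3, 12 without course 1, 4 with scaling to the total count and 1 in DESeq2. Of the 27 genes called higher and 28 called lower, 8 and 2 kept an adjusted p under 0.05 without the block. Without course 2 it was 6 and 1, without course 3 19 and 11, and without course 1 25 and 20. Without the replicate block 8 genes were higher and 2 lower at 120 than at 60 min, 1 and 0 differed between the steps, and 135 were lower at 180 than at 30 min. The fit of the 6 libraries alone (2 residual degrees of freedom, 5752 genes) called 54 lower. With no fold minimum 49 were higher and 59 lower, and 930 and 808 at 180 against 30 min. Leaving out 1 course gave 6 to 34 genes higher and 1 to 29 lower at 120 than at 60 min, both lowest without course 2, 2 to 15 and 0 to 8 for the difference between the steps. For the difference between the steps DESeq2 called 27 and 10, the libraries of 30 to 240 min 34 and 25 (chosen after seeing the data), and scaling to the total count 12 lower. That scaling put the median of all genes at -0.13 in this test. The cause of these shifts was not tested, and with 3 courses the loss of 1 leaves 2 pairs.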
